A study of Mus musculus with 12 samples.

Results

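The nuclear-encoded genes of oxidative phosphorylation were followed in 12 RNA-sequencing libraries of sorted mouse microglia. The rule that chose the members uses gene names and no measured value, but it was set with earlier results of these data known. It takes protein-coding genes outside the mitochondrial genome whose symbol begins with Nduf, Uqcr, Cox4 to Cox8 or Atp5, or is Sdha, Sdhb, Sdhc or Sdhd. This gave 94 of the 55487 genes counted. They were 36 subunit genes and 8 assembly factor genes of complex I, 4 genes of complex II, 8 of complex III, 20 of complex IV and 18 of complex V. A further 13 nuclear entries with such a symbol were annotated as pseudogenes or non-coding RNA and were left out. Of the 94 members, 89 had enough counts to be tested among 16908 genes. The 5 others (Cox4i2, Cox7b2, Cox8b, Cox8c and Ndufa4l2) were at or near 0 counts. The symbol Atp5o stands for 2 Ensembl genes at 1 locus, which share exons and are not independent.

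All libraries came from unchallenged YARG mice at postnatal day 13, in which yellow fluorescent protein (YFP) is placed after the stop codon of Arg1, so that YFP reports activity of the Arg1 locus. Microglia that carried CX3CR1 and lacked CD206 were sorted from basal forebrain and striatum into a YFP+ population (ARG1+) and a YFP- population (ARG1-), both from reporter animals. Each population had 3 libraries from females and 3 from males, and tissue of several animals of one sex was pooled for each replicate. The study's methods give 3 litters per sex and sort both populations from the dissected tissue, so ARG1+ and ARG1- libraries of a sex may hold cells of the same animals. The labels do not say which libraries these are, and the fits treat them as independent. The comparison asked which of these genes differed between ARG1+ microglia and their ARG1- neighbours. A sample is named here by its population, sex and the number in its label.

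Oxidative phosphorylation couples the oxidation of NADH and succinate to the production of ATP in the inner mitochondrial membrane. Complexes I and II pass electrons to ubiquinone, complex III passes them on to cytochrome c, complex IV reduces oxygen, and the proton gradient that complexes I, III and IV build drives ATP synthase, also called complex V. Most subunits are encoded in the nucleus, while a small number, among them the catalytic core of complex IV, are encoded in the mitochondrial genome. In microglia, oxidative metabolism is widely studied because the balance between respiration and glycolysis shifts when these cells are activated.

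The ARG1- libraries held 30954399 to 60625170 counts and the ARG1+ libraries 28356659 to 46569667 counts, and the median tested member had 645 counts in the ARG1+ library where it was lowest. Levels are given as CPM, counts scaled to a common library size with TMM (trimmed mean of M values) factors. RPKM, the CPM divided by the exonic length in kilobases, were used wherever genes were compared with each other. Exonic length joins the exons of all annotated transcripts of a gene, so it can exceed the length of any single transcript. All 6 microglia markers listed were detected, with summed levels of 39019 to 55676 CPM in ARG1- and 32855 to 43377 CPM in ARG1+ libraries. Arg1 itself had 0 counts in all 6 ARG1- libraries, 52 and 2 counts in ARG1+ females 15 and 8, and 0 counts in the other 4 ARG1+ libraries. In these libraries the population label therefore rests on YFP and not on the Arg1 count. The study reports that RT-qPCR of populations sorted by the same markers found Arg1 expression only in YFP+ cells. A lower share of reads in a sorted population cannot be told apart from fewer cells of a type in the gate or from less RNA of that kind per cell.

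The oxidative phosphorylation genes were lower in ARG1+ microglia, with lower members in each of the 5 complexes. Of the 89 members tested, 72 were lower at an adjusted p under 0.05 in the quasi-likelihood test of edgeR, adjusted by Benjamini-Hochberg, beside 9.42% of all 16908 genes tested. No tested member was higher, beside 6.44% of all genes. Among members, 0 were higher at an unadjusted p under 0.05, and DESeq2 also called 0 higher, with 2 at an unadjusted p under 0.05. The median log2 fold change (ARG1+ over ARG1-) was -0.83 for the members and 0.057 for all genes. In the table as a whole, 1593 genes were lower and 1089 higher, and 1159 and 1428 when library totals replaced the TMM factors. With library totals the number of lower members was 62. Leaving out any 1 of the 12 libraries left between 56 and 72 lower members, and 55 of the 72 passed in all 12 of those fits.

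In every ARG1+ library the members together took a smaller share of the counts than in any ARG1- library. The share was 0.618% to 0.737% (mean 0.686% ± 0.0387, SD, n = 6) in ARG1- and 0.387% to 0.542% (mean 0.463% ± 0.0614, SD, n = 6) in ARG1+ libraries. For 56 members, all 6 ARG1+ libraries lay below all 6 ARG1- libraries, beside 6.56% of all genes, and for 0 members did they lie above. The ARG1+ libraries were not alike. Male 12 held the lowest ARG1+ value of 60 members, while female 15 and male 11 held the highest ARG1+ value of 47 and 34 members. On the log2 scale, the median member lay -0.85 from its mean over all libraries in ARG1+ male 12, -0.54 in male 16, -0.47 in female 8, -0.43 in female 7, -0.092 in male 11 and -0.069 in female 15. In the ARG1- libraries this value lay between 0.27 and 0.51. The spread between libraries (SD of log2 CPM) had a median of 0.21 over members in ARG1- and 0.34 in ARG1+, and it was larger in ARG1+ for 71 of 89 members, whereas this held for 5015 of 16908 genes overall.

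**Figure D1:**
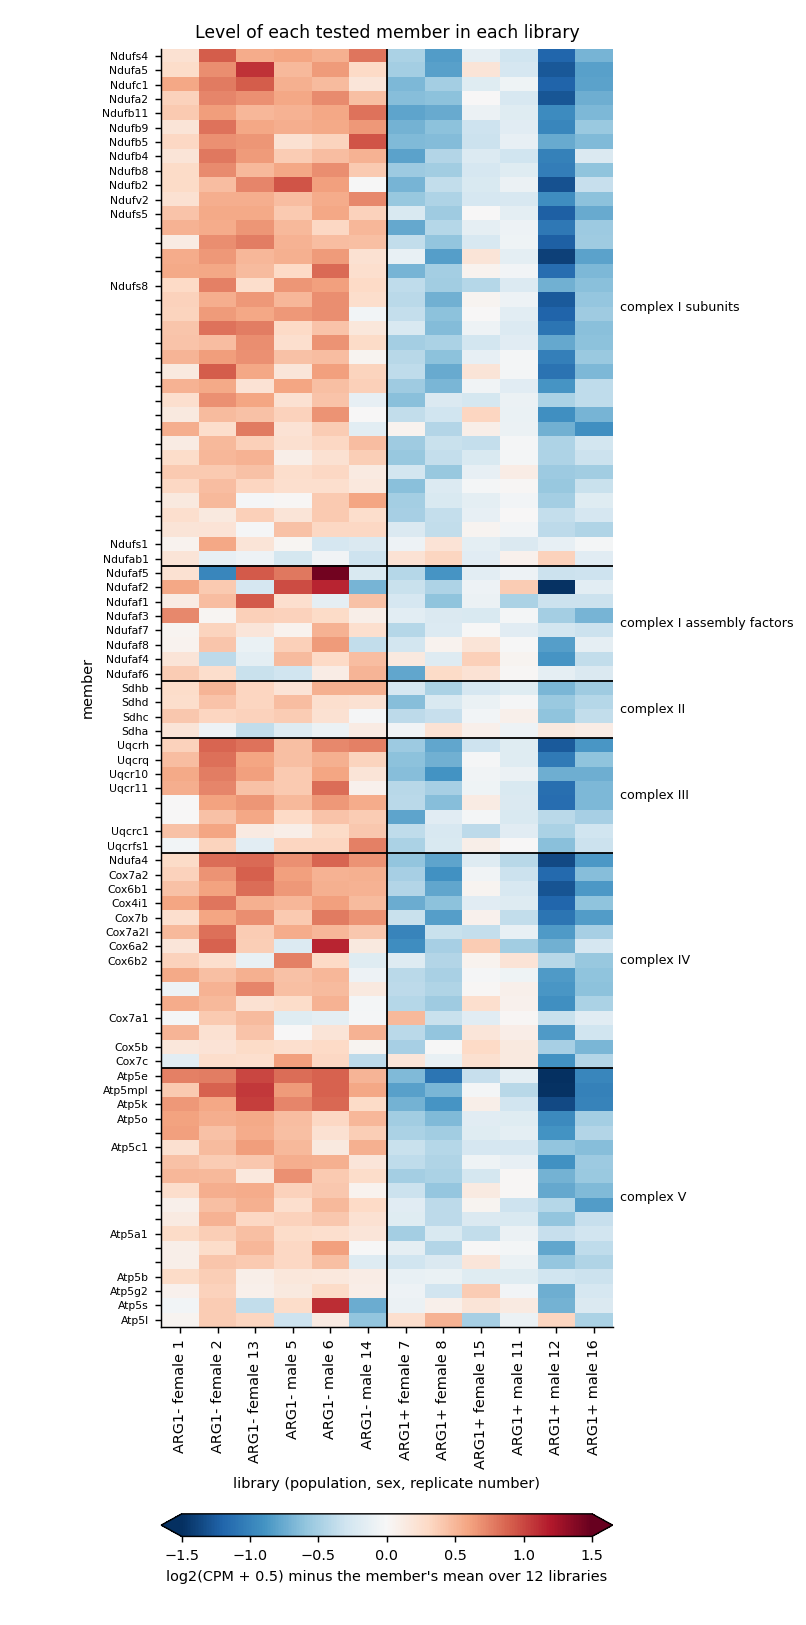
Level of the 89 tested members (rows, by set) in the 12 libraries (columns), as log2(CPM + 0.5) minus the member's mean over all libraries, from blue (low) to red (high), with colours ending at 1.5 and names for the members chosen by the rule for named genes or not called. Nearly all rows turn from red in the 6 ARG1- libraries to blue in the 6 ARG1+ libraries, deepest in ARG1+ male 12 and palest in female 15 and male 11.

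Other measures moved with the populations, and their part in the lower levels was not tested. A fixed list of 8 nuclear or intron-retaining transcripts took 0.146% to 0.345% of the counts in ARG1- and 0.363% to 0.705% in ARG1+ libraries. Of this list 4 were higher in ARG1+ and 0 lower, beside 6.44% and 9.42% of all genes, which are also the background for the marker lists below. Among the higher genes were Ccnl2 (1.22, adjusted p = 0.000187), Rsrp1 (1.32, adjusted p = 0.000422), and the long non-coding RNA Neat1 (2.58, adjusted p = 0.00166). By sex, the median log2 fold change of this list was 1.32 in females (6 higher) and 0.36 in males (3 higher). Of all 16908 genes 440 were higher in females and 344 in males. The difference between the sexes passed the test for 0 of its genes, with 4 at an unadjusted p under 0.05 and a smallest adjusted p of 0.277. In ARG1+ females 7, 8 and 15 this list took 0.596%, 0.705% and 0.638% of the counts, and in ARG1+ males 11, 12 and 16 it took 0.620%, 0.465% and 0.363%. The genes of cytosolic ribosomal proteins took 0.266%, 0.251% and 0.372% in the same females and 0.361%, 0.206% and 0.257% in the same males. How either share relates to the members by library was not tested. Markers of other cell types were low beside the microglia markers. The summed level of 7 oligodendrocyte markers was 263 to 382 CPM in ARG1- and 171 to 260.3 CPM in ARG1+, with 1 lower in ARG1+, Cnp (-0.55, adjusted p = 0.00467). For 6 astrocyte markers it was 176 to 224 CPM in ARG1- and 129 to 149.7 CPM in ARG1+, with 1 lower, Slc1a3 (-0.43, adjusted p = 0.00817). The 8 border macrophage markers summed to 293 to 512 CPM in ARG1- and 397 to 837 CPM in ARG1+, with 1 higher, Stab1 (0.82, adjusted p = 0.0277). The 5 monocyte markers, with Chil3 at 0 throughout, summed to 5.05 to 14.1 CPM in ARG1- and 1.89 to 6.70 CPM in ARG1+, with 1 lower, Plac8 (-2.38, adjusted p = 0.00466). The 5 erythroid markers summed to 3.69 to 17.7 CPM in ARG1- and 0 to 3.39 CPM in ARG1+, with 1 lower, Hbb-bt (adjusted p = 0.00866). No neuron or endothelial marker passed the test. Their sums were 4.4995 to 20.2 CPM in ARG1- and 2.32 to 10.7 CPM in ARG1+ for 8 neuron markers, and 29.8 to 57.5 CPM in ARG1- and 39.6 to 83.6 CPM in ARG1+ for 5 endothelial markers with Cldn5 at 0 throughout.

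The promoters were read because most members were lower together and because known regulators of these genes bind short motifs near their start sites. RefSeq windows of 300 bases (250 before the start site to 50 after it, GRCm38.p6) were found for 76 of the 93 member symbols. Both strands were searched for the letters named here. The shares that follow count genes with at least 1 match in any of their windows. For these shares, all genes are the 27025 genes with RefSeq windows and not the genes tested in these libraries. Whether the members differ in these shares from genes of like level was not tested. CGCATGCG, the core bound by NRF1, was in 11 of 76 members (14.5%) and 2.07% of all genes. AAGATGGC, bound by YY1, was in 11 of 76 members (14.5%) and 3.19% of all genes. CCGGAAG, bound by ETS factors such as GABP, was in 18 of 76 members (23.7%) and 9.93% of all genes. TCAAGGTCA, bound by the estrogen-related receptors, was in 2 of 76 members (2.63%) and 0.466% of all genes, and GGGCGG, the GC box bound by Sp1, in 35 of 76 members (46.1%) and 38.2% of all genes. At least 1 of the motifs other than the GC box was found in 34 members (44.7%), beside 14.5% of all genes. Lower members and members not called both held matches. NRF1 letters were in 7 of 60 lower and 4 of 14 members not called, and ETS letters in 16 and 2 of the same numbers. YY1 letters were in 10 and 1, receptor letters in 2 and 0, and the GC box in 27 and 7. Differences in this split were not tested. A match is a run of letters and not a measured site, and no 2 of the matches printed overlap. One lower member of each complex and a second of complex V, whose windows hold such letters, are printed 5′ to 3′ along the gene, with the matches to the NRF1, ETS, YY1 and receptor motifs in capitals, on either strand. All lie on the minus strand of GRCm38.p6, Ndufs4 (complex I) at chr13:114388045-114388344, Sdhd (complex II) at chr9:50603800-50604099, Uqcr11 (complex III) at chr10:80406772-80407071, Cox6b1 (complex IV) at chr7:30626065-30626364, Atp5e (complex V) at chr2:174464052-174464351 and Atp5k (complex V) at chr5:108434350-108434649.
Ndufs4: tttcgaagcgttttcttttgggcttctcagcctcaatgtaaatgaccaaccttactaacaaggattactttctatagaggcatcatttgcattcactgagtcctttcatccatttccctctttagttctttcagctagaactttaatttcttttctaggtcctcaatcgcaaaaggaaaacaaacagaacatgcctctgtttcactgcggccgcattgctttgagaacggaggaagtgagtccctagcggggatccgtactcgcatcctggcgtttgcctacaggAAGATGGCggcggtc
Sdhd: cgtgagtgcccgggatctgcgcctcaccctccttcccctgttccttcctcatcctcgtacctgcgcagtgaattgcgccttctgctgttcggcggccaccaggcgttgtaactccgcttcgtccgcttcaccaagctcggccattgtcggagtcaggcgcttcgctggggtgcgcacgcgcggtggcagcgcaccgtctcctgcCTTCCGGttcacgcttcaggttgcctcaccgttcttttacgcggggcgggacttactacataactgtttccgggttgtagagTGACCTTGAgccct
Uqcr11: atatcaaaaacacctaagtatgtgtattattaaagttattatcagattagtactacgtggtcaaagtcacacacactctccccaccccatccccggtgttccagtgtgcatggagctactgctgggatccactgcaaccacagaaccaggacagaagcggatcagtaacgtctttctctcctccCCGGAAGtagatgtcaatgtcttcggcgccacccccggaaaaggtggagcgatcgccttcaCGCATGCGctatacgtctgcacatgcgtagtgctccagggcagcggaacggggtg
Cox6b1: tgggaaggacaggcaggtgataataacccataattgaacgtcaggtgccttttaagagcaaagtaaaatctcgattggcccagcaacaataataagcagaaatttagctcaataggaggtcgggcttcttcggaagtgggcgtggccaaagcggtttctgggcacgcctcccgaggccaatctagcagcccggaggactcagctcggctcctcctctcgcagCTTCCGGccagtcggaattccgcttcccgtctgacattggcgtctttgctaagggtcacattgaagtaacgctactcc
Atp5e: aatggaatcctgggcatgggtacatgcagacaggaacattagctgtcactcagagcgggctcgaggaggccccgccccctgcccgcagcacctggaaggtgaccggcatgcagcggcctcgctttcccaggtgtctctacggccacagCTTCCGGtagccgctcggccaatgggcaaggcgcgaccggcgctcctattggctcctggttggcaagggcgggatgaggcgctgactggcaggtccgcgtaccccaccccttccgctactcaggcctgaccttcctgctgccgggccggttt
Atp5k: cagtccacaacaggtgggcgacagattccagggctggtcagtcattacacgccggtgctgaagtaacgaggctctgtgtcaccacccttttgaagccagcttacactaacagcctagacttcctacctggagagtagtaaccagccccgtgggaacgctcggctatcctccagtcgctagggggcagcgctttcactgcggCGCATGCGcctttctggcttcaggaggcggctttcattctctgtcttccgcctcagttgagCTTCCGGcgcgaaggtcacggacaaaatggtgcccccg

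Complex I, the NADH dehydrogenase, gave the largest set. Of its 36 nuclear subunit genes 34 were lower in ARG1+ and 0 higher, with a median log2 fold change of -0.97, and for 28 the libraries of both populations did not overlap. Over all genes tested 9.42% were lower, 6.44% were higher and 6.56% had all ARG1+ libraries below all ARG1- libraries. These shares are the background for each complex below as well. The summed level was 2083 ± 146 CPM (SD, n = 6) in ARG1- and 1230 ± 178 CPM (SD, n = 6) in ARG1+ libraries. The core subunits, which carry the flavin and iron-sulfur clusters, were lower for 6 of 7, with a median of -0.57. The accessory subunits, which surround the core and take part in its assembly and stability, were lower for 28 of 29, with a median of -0.98.

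Ndufs8 (ENSMUSG00000059734, chromosome 19 from 3908863 to 3912774 in GRCm38), a core subunit that holds iron-sulfur clusters next to the ubiquinone site, had the highest level per length of the set, 118 RPKM in ARG1- and 59.9 RPKM in ARG1+. It stood at 129.8 to 182 CPM (median 149) in the ARG1- libraries and 65.03 to 93.01 CPM (median 77.2) in the ARG1+ libraries. The lowest ARG1- library lay above the highest ARG1+ library (log2 fold change -0.98 ± 0.13 (SE), adjusted p = 0.000741). Ndufv2, a core subunit of the module that oxidizes NADH, stood at 79.6 to 113 CPM (median 99.5) in the ARG1- libraries and 35.4 to 57.3 CPM (median 47.6) in the ARG1+ libraries and was lower without overlap (log2 fold change -1.02 ± 0.14 (SE), adjusted p = 0.000859). Ndufb9, an accessory subunit of the membrane arm, ranged over 58.1 to 89.5 CPM (median 75.7) in the ARG1- libraries and 25.4 to 44.8 CPM (median 33.7) in the ARG1+ libraries, again without overlap (log2 fold change -1.11 ± 0.15 (SE), adjusted p = 0.000989).

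The largest fitted change in complex I was that of Ndufs4, an accessory subunit of the matrix arm whose loss is a known cause of mitochondrial disease. Ndufs4 stood at 40.9 to 65.9 CPM (median 52.3) in the ARG1- libraries and 15.02 to 31.6 CPM (median 23.2) in the ARG1+ libraries. All ARG1+ values lay below all ARG1- values (log2 fold change -1.21 ± 0.19 (SE), adjusted p = 0.0017). The other accessory subunits with a fitted change of at least 2-fold were Ndufa5 (-1.17), Ndufc1 (-1.16), Ndufa2 (-1.15), Ndufb11 (-1.13), Ndufb5 (-1.07), Ndufb4 (-1.06), Ndufb8 (-1.04), Ndufb2 (-1.02) and Ndufs5 (-1.01), all log2 values. Their adjusted p-values lay between 0.00101 and 0.02. Ndufb genes belong to the membrane arm, and Ndufa2 and Ndufa5 to the matrix arm. Ndufs5 lost its call when ARG1+ female 8, male 12 or male 16 was left out. Members on the X chromosome are Ndufa1, Ndufb11 and Cox7b, and all 3 were lower.

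The complex I subunit genes that missed the threshold were Ndufs1 and Ndufab1, both chosen for description after their values were seen. Ndufs1, the largest core subunit, stood at 90.3 to 161 CPM (median 111) in the ARG1- libraries and 92.5 to 124 CPM (median 100.2) in the ARG1+ libraries, and the populations overlapped (log2 fold change -0.14 ± 0.12 (SE), adjusted p = 0.499). Ndufab1, the acyl carrier protein that also serves mitochondrial fatty acid synthesis, stood at 29.5 to 41.99 CPM (median 34.1) in the ARG1- libraries and 32.5 to 46.6 CPM (median 40.5) in the ARG1+ libraries. It was one of 3 members with a fitted value above 0 (log2 fold change 0.22 ± 0.14 (SE), adjusted p = 0.321). Both have long exonic sequence, 8086 and 6883 bases, against a median of 1644 bases in the set.

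The assembly factors of complex I build the enzyme without staying in it. Of the 8 genes named Ndufaf, 3 were lower and 0 higher, all 8 had a fitted value below 0, and the median was -0.55. They were expressed at a lower level per length than the subunits, with a median of 8.05 RPKM in ARG1- against 30.6 RPKM for the subunit genes. Ndufaf7, an arginine methyltransferase of the mitochondrial matrix, stood at 52.6 to 73.3 CPM (median 59.5) in the ARG1- libraries and 37.7 to 50.6 CPM (median 43.3) in the ARG1+ libraries without overlap (log2 fold change -0.47 ± 0.12 (SE), adjusted p = 0.0185). Ndufaf1 stood at 18.4 to 38.9 CPM (median 25.97) in the ARG1- libraries and 13.1 to 19.1 CPM (median 16.2) in the ARG1+ libraries, with a small overlap (log2 fold change -0.72 ± 0.18 (SE), adjusted p = 0.0176). For Ndufaf3 the range was 15.8 to 25.96 CPM (median 19.4) in the ARG1- libraries and 9.40 to 15.2 CPM (median 13.2) in the ARG1+ libraries (log2 fold change -0.63 ± 0.17 (SE), adjusted p = 0.0285). Single libraries decided these calls. Ndufaf3 passed in 3, Ndufaf7 in 9 and Ndufaf1 in 11 of the 12 fits that left out a library, and Ndufaf3 and Ndufaf7 also lost their call with library totals. The remaining Ndufaf2, Ndufaf4, Ndufaf5, Ndufaf6 and Ndufaf8 had log2 values from -1.01 to -0.22, with standard errors of 0.24 to 0.44.

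Complex II, the succinate dehydrogenase, is the one respiratory complex with no subunit from the mitochondrial genome, and it also works in the tricarboxylic acid cycle. Of its 4 subunits 3 were lower, 0 were higher, and the median was -0.60. Sdhb, the iron-sulfur subunit, stood at 182 to 229 CPM (median 212) in the ARG1- libraries and 98.3 to 139.6 CPM (median 123) in the ARG1+ libraries (log2 fold change -0.79 ± 0.11 (SE), adjusted p = 0.00102). Sdhd, a membrane anchor and the member of the complex with the highest level per length, stood at 176 to 206 CPM (median 183) in the ARG1- libraries and 95.7 to 147 CPM (median 119) in the ARG1+ libraries (log2 fold change -0.64 ± 0.12 (SE), adjusted p = 0.00417). Neither overlapped between the populations. Sdhc, the other anchor, overlapped at 42.2 to 56.8 CPM (median 54.2) in the ARG1- libraries and 28.1 to 45.3 CPM (median 33.4) in the ARG1+ libraries (log2 fold change -0.55 ± 0.14 (SE), adjusted p = 0.0187), and it lost its call when ARG1+ female 7, female 8, male 12 or male 16 was left out. Sdha, the flavoprotein that oxidizes succinate, stood at 261 to 387 CPM (median 319) in the ARG1- libraries and 319 to 392 CPM (median 359) in the ARG1+ libraries. The ARG1+ values lay within or just above the ARG1- range, and the fitted value was above 0 but not past the threshold (log2 fold change 0.13 ± 0.10 (SE), adjusted p = 0.469). Summed over the complex, the level was 775 ± 46.7 CPM (SD, n = 6) in ARG1- and 632 ± 35.4 CPM (SD, n = 6) in ARG1+ libraries.

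Complex III, the cytochrome c reductase, had 7 of 8 genes lower and 0 higher, with a median of -0.995. The summed level was 873 ± 79.6 CPM (SD, n = 6) in ARG1- and 525 ± 58.4 CPM (SD, n = 6) in ARG1+ libraries. Uqcrh, the hinge protein that contacts cytochrome c1 (ENSMUSG00000063882, chromosome 4 from 116066965 to 116075071 in GRCm38), stood at 35.8 to 51.6 CPM (median 47.1) in the ARG1- libraries and 11.5 to 24.7 CPM (median 17.6) in the ARG1+ libraries. Every ARG1+ library lay below every ARG1- library (log2 fold change -1.31 ± 0.19 (SE), adjusted p = 0.00121). The other small subunits were lower by similar amounts, Uqcrq at 41.7 to 58.8 CPM (median 46.9) in the ARG1- libraries and 15.5 to 32.7 CPM (median 21.5) in the ARG1+ libraries (log2 fold change -1.05 ± 0.18 (SE), adjusted p = 0.0024). The log2 value was -1.04 for Uqcr10 (adjusted p = 0.00441) and -1.01 for Uqcr11 (adjusted p = 0.00423). Uqcrc1, a large core protein and the member of the complex with the highest level per length, had a smaller change, 392 to 558 CPM (median 468) in the ARG1- libraries and 266 to 329 CPM (median 292) in the ARG1+ libraries (log2 fold change -0.65 ± 0.10 (SE), adjusted p = 0.00145). Uqcrfs1, the Rieske iron-sulfur protein that passes electrons to cytochrome c1, was the one gene of the complex that missed the threshold (log2 fold change -0.52 ± 0.17 (SE), adjusted p = 0.0583) and is named after its value was seen.

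Complex IV, the cytochrome c oxidase, had the lowest ratio of mean summed levels (ARG1+ over ARG1-), 0.510. Its summed level was 829 ± 57.2 CPM (SD, n = 6) in ARG1- and 423 ± 106 CPM (SD, n = 6) in ARG1+ libraries. The same ratio was 0.590 for complex I subunits, 0.602 for complex III, 0.660 for complex V, 0.699 for the assembly factors and 0.816 for complex II. Differences between complexes were not tested. Of the 20 genes of complex IV, 15 passed the filter, 10 of these were lower, 0 were higher, and the median was -0.89.

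Cox4i1 (ENSMUSG00000031818, chromosome 8 from 120668222 to 120674207 in GRCm38), the common form of the nuclear subunit that regulates the enzyme by binding ATP, had the highest level per length of all members in ARG1-, 183 RPKM, and 83.3 RPKM in ARG1+. It stood at 261 to 329.9 CPM (median 278) in the ARG1- libraries and 82.4 to 168 CPM (median 124) in the ARG1+ libraries. The gap between the populations was wide (log2 fold change -1.14 ± 0.16 (SE), adjusted p = 0.000935), and the fitted change was alike in females (-1.14) and males (-1.14). Ndufa4, first named as a complex I subunit and later assigned to complex IV, stood at 50.2 to 75.4 CPM (median 70.1) in the ARG1- libraries and 15.8 to 35.8 CPM (median 25.2) in the ARG1+ libraries. Its fitted change was the largest of the complex (log2 fold change -1.40 ± 0.19 (SE), adjusted p = 0.000869). Cox7a2l, which joins complexes III and IV into supercomplexes, stood at 55.9 to 75.97 CPM (median 60.1) in the ARG1- libraries and 21.3 to 39.4 CPM (median 31.7) in the ARG1+ libraries (log2 fold change -1.03 ± 0.16 (SE), adjusted p = 0.0017). Among the small subunits, Cox7a2 had a log2 value of -1.19 (adjusted p = 0.00184), Cox6b1, at the interface of the dimer, -1.16 (adjusted p = 0.00231) and Cox7b -1.12 (adjusted p = 0.00379). For all of these the populations did not overlap.

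Of the 8 genes that encode tissue-specific forms of complex IV subunits, 5 were at or near 0 counts and were not tested, and 0 of the other 3 passed the threshold. Cox8b and Cox8c had 0 counts in all 12 libraries, which allows a level of up to 0.102 CPM in the shallowest library (3 counts). Counting error is all that this limit covers. Cox7b2 reached 3 counts in 1 ARG1+ library and Ndufa4l2 at most 1 count in any library. Cox4i2, the form of Cox4 known from lung, had 0 to 5 counts in ARG1- and 4 to 9 counts in ARG1+ libraries. Its mean was higher in ARG1+ (0.162 CPM) than in ARG1- (0.0220 CPM), but it lay near the floor and was not tested. Cox6a2 and Cox7a1, known from heart and skeletal muscle, and Cox6b2, known from testis, passed the filter. Cox6a2 stood at 2.33 to 6.69 CPM (median 3.45) in the ARG1- libraries and 1.21 to 3.73 CPM (median 1.79) in the ARG1+ libraries, against a median of 84.7 CPM in ARG1- and 44.4 CPM in ARG1+ for Cox6a1, the common form, whose exonic length is similar (702 against 680 bases). Cox6a2 missed the threshold (log2 fold change -1.01 ± 0.39 (SE), adjusted p = 0.101) but passed it with DESeq2 and with a minimum of 10 counts in every library. Cox6b2 (median 0.718 CPM in ARG1-, 0.316 CPM in ARG1+) and Cox7a1 (median 0.119 and 0.0581 CPM) gave log2 values of -0.89 ± 0.56 and -0.60 ± 1.01 (SE), neither past the threshold.

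Complex IV also held common subunits that did not pass, again named after their values were seen. Cox5b, which binds zinc, stood at 20.5 to 24.5 CPM (median 23.4) in the ARG1- libraries and 12.1 to 24.5 CPM (median 16.8) in the ARG1+ libraries (log2 fold change -0.39 ± 0.19 (SE), adjusted p = 0.195), and Cox7c at 14.3 to 29.1 CPM (median 22.7) in the ARG1- libraries and 9.85 to 22.5 CPM (median 19.1) in the ARG1+ libraries (log2 fold change -0.30 ± 0.24 (SE), adjusted p = 0.434). The populations overlapped for both.

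Complex V, the ATP synthase, had 15 of 18 genes lower and 0 higher, with a median of -0.70. The summed level was 2372 ± 119.9 CPM (SD, n = 6) in ARG1- and 1565 ± 129 CPM (SD, n = 6) in ARG1+ libraries. All 5 genes of the catalytic head and central stalk were lower (median -0.83), as were all 5 Ensembl genes of the peripheral stalk, which holds the head still (median -0.70), the pair named Atp5o included. The 3 genes Atp5g1, Atp5g2 and Atp5g3 encode the same mature c subunit of the rotor, and 2 of them were lower (median -0.49).

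Within the head, the sizes of the changes spread widely. Atp5b (ENSMUSG00000025393, chromosome 10 from 128083273 to 128090391 in GRCm38), the catalytic beta subunit, had the highest level per length of the complex, 180.1 RPKM in ARG1- and 137 RPKM in ARG1+. It stood at 706 to 855 CPM (median 743) in the ARG1- libraries and 531 to 620.3 CPM (median 585) in the ARG1+ libraries. The populations were apart, but by the smallest fitted change of any lower member (log2 fold change -0.40 ± 0.067 (SE), adjusted p = 0.00236). Atp5a1, the alpha subunit, stood at 506 to 611 CPM (median 541) in the ARG1- libraries and 311 to 418 CPM (median 358) in the ARG1+ libraries (log2 fold change -0.61 ± 0.085 (SE), adjusted p = 0.00101), and Atp5c1, the gamma subunit that turns inside the head, at 189 to 265 CPM (median 238) in the ARG1- libraries and 109.7 to 144 CPM (median 131) in the ARG1+ libraries (log2 fold change -0.84 ± 0.11 (SE), adjusted p = 0.000733). Atp5e (ENSMUSG00000016252, chromosome 2 from 174461072 to 174464105 in GRCm38), the epsilon subunit at the foot of the central stalk, stood at 25.3 to 35.8 CPM (median 31.2) in the ARG1- libraries and 5.74 to 15.8 CPM (median 9.81) in the ARG1+ libraries. Its fitted change was the largest of all members (log2 fold change -1.56 ± 0.24 (SE), adjusted p = 0.00137).

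Further large changes were found in small membrane subunits. Atp5mpl, a short proteolipid of the membrane part, stood at 19.99 to 32.1 CPM (median 26.1) in the ARG1- libraries and 5.08 to 14.8 CPM (median 8.82) in the ARG1+ libraries (log2 fold change -1.49 ± 0.24 (SE), adjusted p = 0.0017). Atp5k, the e subunit that holds the dimer of the synthase together, stood at 6.31 to 10.98 CPM (median 8.50) in the ARG1- libraries and 1.68 to 5.44 CPM (median 2.72) in the ARG1+ libraries (log2 fold change -1.47 ± 0.30 (SE), adjusted p = 0.00713). Both were apart between the populations. Atp5o, the peripheral stalk subunit that joins the stalk to the head, stood at 71.2 to 87.9 CPM (median 82.9) in the ARG1- libraries and 29.4 to 51.1 CPM (median 40.1) in the ARG1+ libraries (log2 fold change -0.98 ± 0.14 (SE), adjusted p = 0.00102). The members that missed the threshold, named after their values were seen, were Atp5l, the g subunit (log2 fold change 0.047 ± 0.28 (SE), adjusted p = 0.935), Atp5g2 (log2 fold change -0.35 ± 0.25 (SE), adjusted p = 0.388) and Atp5s, a coupling factor that is not a stable subunit (log2 fold change -0.30 ± 0.30 (SE), adjusted p = 0.567).

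**Figure D2:**
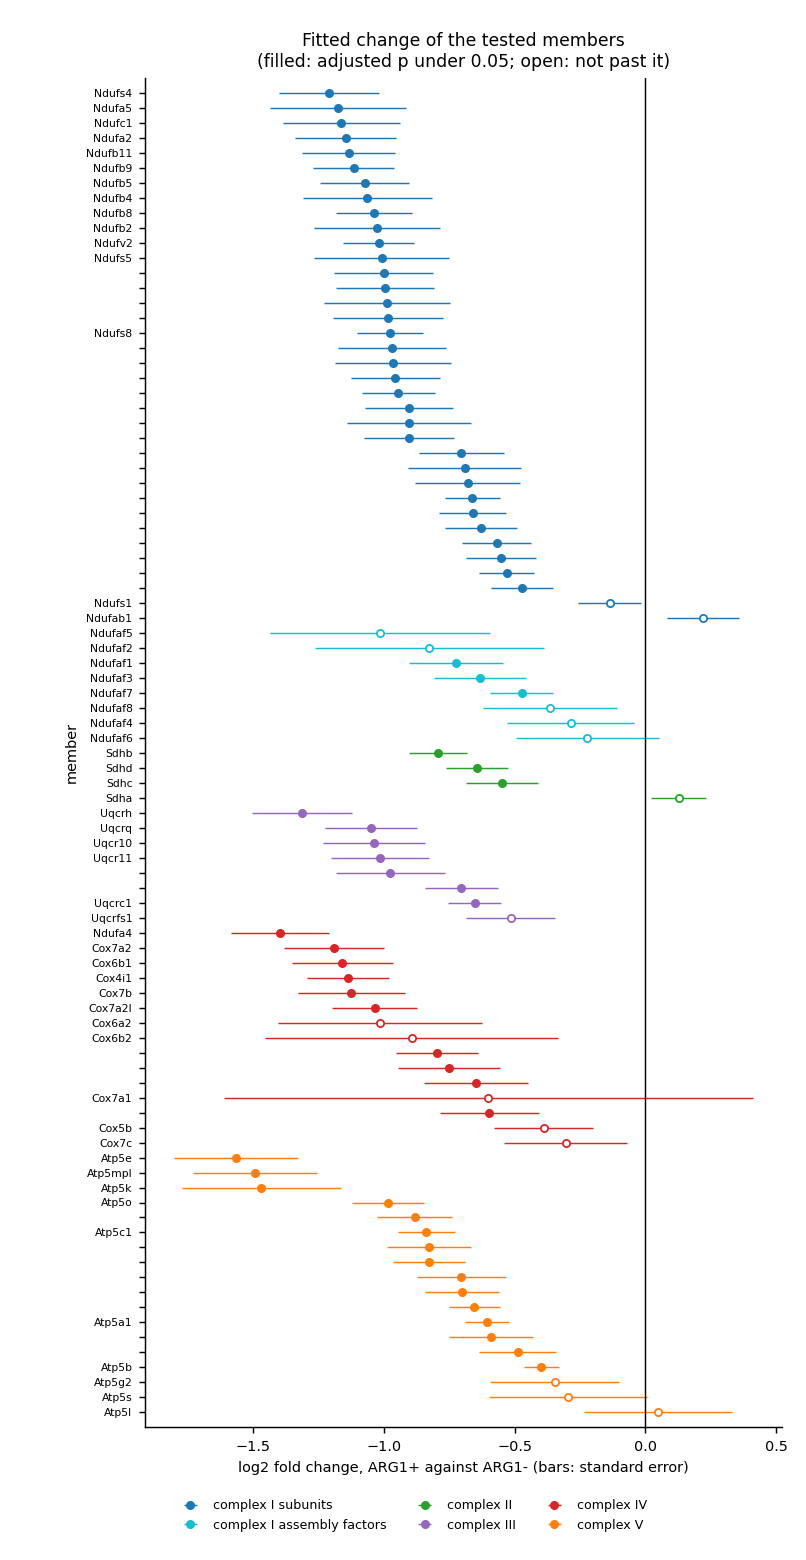
Fitted log2 fold change (ARG1+ against ARG1-) of the 89 tested members by set, with bars for the standard error, filled where the adjusted p was under 0.05 and with names for part of the members. The 72 filled points all lie left of 0, Atp5e, Atp5mpl and Atp5k farthest, and 3 open points (Ndufab1, Sdha and Atp5l) lie to its right.

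**Figure D3:**
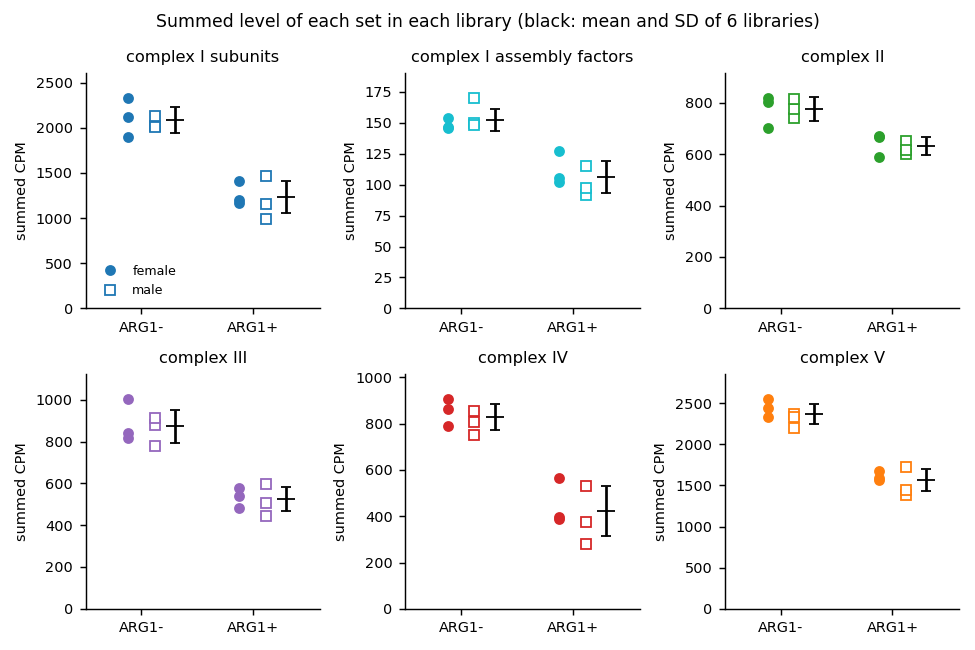
Summed CPM of each set in each library, with females as filled circles and males as open squares, and the mean and SD of 6 libraries in black. In all 6 sets the ARG1+ libraries lie below the ARG1- libraries, with the smallest relative gap in complex II and the largest in complex IV.

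The lower members closest to the threshold were Cox5a (-0.60, adjusted p = 0.0497), Ndufa6 (-0.69, adjusted p = 0.0475) and Cox8a (-0.65, adjusted p = 0.044). Just outside it were Uqcrfs1 (-0.52, adjusted p = 0.0583), Cox6a2 and Ndufaf5 (-1.01, adjusted p = 0.128). A member that missed the threshold is not thereby shown to be equal in both populations. Of the 17 members not called, 14 had a fitted value below 0.

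Compared per length, the members were well expressed in microglia, with a median of 28.7 RPKM in ARG1- and 16.03 RPKM in ARG1+, against 3.27 and 3.59 RPKM over all genes tested. Cox4i1 stood highest in ARG1-, at 183 RPKM in ARG1- (position 210 among the genes tested) and 83.3 RPKM in ARG1+ (position 439). Atp5b was at 180.1 RPKM in ARG1- (position 212 among the genes tested) and 137 RPKM in ARG1+ (position 239), and Atp5a1 at 176 RPKM in ARG1- (position 222 among the genes tested) and 115 RPKM in ARG1+ (position 295). Sdhd followed with 153 RPKM in ARG1- (position 258 among the genes tested) and 97.9 RPKM in ARG1+ (position 358). In ARG1- the values of Cox4i1 and Atp5b lay close together. In ARG1+ Atp5b, Atp5a1, Sdhd and Sdha (86.0 RPKM) stood above Cox4i1. The order of members was not tested, and it rests on exonic length. The longest coding transcripts of Cox4i1 and Atp5b have 765 and 1916 bases, against exonic lengths of 1550 and 4237 bases. RPKM values of genes with reads lost to near-identical copies are too low by an unknown amount.

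Most members are short genes, and the median change of all genes rose with the class of exonic length in these libraries, so length is set beside the result. The median exonic length was 1675 bases for the members and 3478 bases for all genes tested. With the genes tested split by exonic length into 4 classes of equal size, the median log2 fold change of all genes was -0.12 (up to 1811 bases), -0.10 (up to 3478 bases), 0.056 (up to 5848 bases) and 0.29. The same classes held 49, 26, 11 and 3 members, with medians of -0.98, -0.70, -0.65 and 0.047. In the 3 classes up to 5848 bases the members' median lay below that of all genes of like length, and 39, 24 and 9 of them were lower. Of all genes in these classes 13.8%, 13.8% and 7.30% were lower. In the longest class 0 of 3 members were lower, beside 2.84% of all genes. The 3 members with the longest exonic length, Ndufab1, Ndufs1 and Atp5l, were not called. Their longest coding transcripts are shorter, 3479, 2661 and 544 bases. By that transcript Atp5g1 (4715 bases) and Ndufb2 (4371 bases) were longer, and both were lower. The order by length therefore depends on how length is defined. Across the 89 members, which share the same 12 libraries, log2 fold change and log2 exonic length had a Pearson's r of 0.455 and a Spearman's rho of 0.404, given as a description. Over 16874 tested genes with a length the same values were 0.0404 and 0.184. With the trend of all genes in length and GC content removed, 66 members were lower and their median was -0.74.

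**Figure D4:**
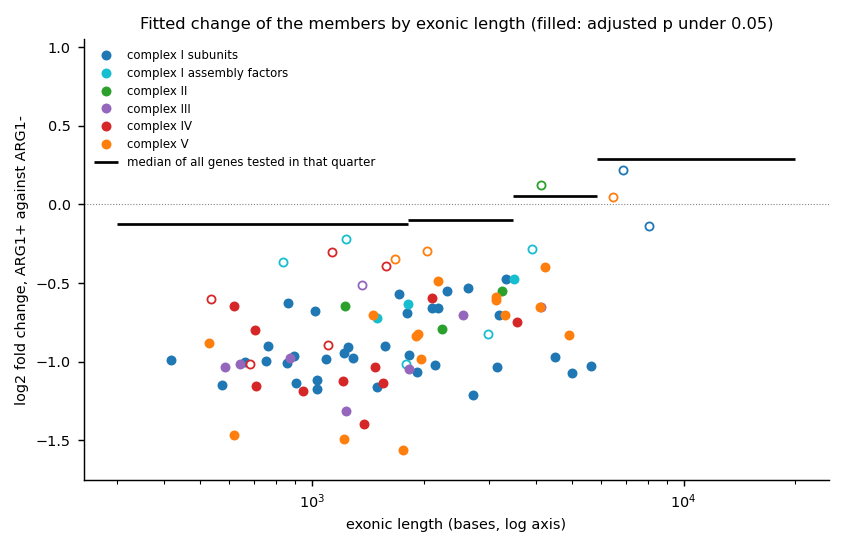
Fitted log2 fold change (ARG1+ against ARG1-) against exonic length in bases, on a log axis, with the members as points coloured by set, filled where the adjusted p was under 0.05, and the median of all genes tested in each of 4 length classes as black lines. The lines climb from -0.12 to 0.29, and all members except Sdha lie below the line of their class.

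How reads that fit several genes were counted is not given in the sources used here, and many of these genes have processed pseudogenes. For each member the share of 75-base windows of its longest transcript that also occur in transcripts of other genes was computed. For 64 members no window was shared. The share was over 10% in 4 of the 17 members not called, which were Atp5l (63.4%), Cox7c (25.04%), Cox5b (17.2%) and Ndufab1 (10.9%), and in 12 of the 72 lower members, among them Ndufb4 (35.2%), Ndufs5 (24.1%), Ndufb9 (20.3%) and Cox7a2l (13.4%). The levels of these members are uncertain. Atp5l was also the tested member of complex V with the lowest level per length, 0.766 RPKM in ARG1-. That value uses its exonic length of 6443 bases, against 544 bases in its longest coding transcript. More than 20% of the exonic length of Ndufaf2, Ndufa13, Ndufb6 and both Atp5o genes overlaps another gene, and whether counting used strand is not given either.

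The sexes were compared next, since each holds 3 libraries of each population. In females 36 members were lower in ARG1+ and 0 higher, beside 4.16% of all genes that were lower, and in males 34 were lower and 0 higher, beside 3.10%. These calls borrow the spread of all 12 libraries. The median was -0.81 in females and -0.88 in males, and 26 members were lower in both, beside 1.77% of all genes. The fitted change was below 0 in both sexes for 83 of 89 members (93.3%), against 5468 of 16908 genes (32.3%). The fitted value was lower in males than in females for 60 of 89 members (67.4%), against 48.1% of all genes. Fitted on the 6 libraries of one sex alone, 25 members were lower in females, beside 3.39% of all genes in that fit. In males edgeR then called 0 members and 0% of all genes, with 66 of 88 members lower at an unadjusted p under 0.05. Single libraries carried much of these counts, and the share of all genes called, given in parentheses, moved with them. In males 56 members (4.32%) were lower without ARG1+ male 11, but 3 (0.305%) without ARG1- male 6 and 4 (0.417%) without ARG1- male 14. Without ARG1+ male 12 (0.00564%) or male 16 (0.0278%) edgeR called 0 members in males, with 54 and 59 lower at an unadjusted p under 0.05. The male count was 20 (2.06%) without ARG1- male 5, and 13 (1.13%), 10 (0.874%) and 18 (1.49%) without ARG1+ female 7, 8 or 15, whose spread the fit also uses. In females 1 member was lower without ARG1- female 2 (1.30%) and 1 without ARG1+ female 8 (0.510%), 7 without ARG1- female 13 (1.58%) and 9 without ARG1+ female 15 (1.47%). Without ARG1+ female 7 (0.195%) edgeR called 0 members in females, with 47 lower at an unadjusted p under 0.05. The female count was 23 without ARG1- male 5 (2.99%) or male 14 (3.04%) and 9 without ARG1+ male 16 (1.71%).

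Atp5e, the member with the largest fitted change in all 12 libraries, is shown by sex. In ARG1- females 1, 2 and 13 its level was 30.02, 30.4 and 35.8 CPM, and in ARG1+ females 7, 8 and 15 it was 10.9, 7.97 and 13.8 CPM. In males it was 31.9, 32.8 and 25.3 CPM in ARG1- libraries 5, 6 and 14, and 15.8, 5.74 and 8.72 CPM in ARG1+ libraries 11, 12 and 16. The 2 populations were apart in both sexes. The SD between libraries was 3.49 CPM around a mean of 31.0 CPM in ARG1- and 3.79 CPM around a mean of 10.5 CPM in ARG1+. ARG1+ libraries thus differed more from each other relative to their level, while the spread in CPM was alike. The fitted log2 fold change of Atp5e was -1.56 in females (adjusted p = 0.026) and -1.57 in males (adjusted p = 0.0328), and the difference between the sexes did not pass the test (adjusted p = 1).

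No member passed the test between males and females. Within ARG1- 0 members were called, beside 0.0946% of all genes (16 genes), and within ARG1+ 0, beside 0.0355% (6 genes). The difference between the sexes in the change with ARG1 status passed the test for 0 members and for 0% of all genes. At an unadjusted p under 0.05, edgeR's quasi-likelihood test and DESeq2 each gave 1 member within ARG1-, 0 within ARG1+ and 1 for the difference of changes. In edgeR the first was Ndufs1 (males against females, log2 -0.43, adjusted p = 0.45). The other was Ndufaf4 (difference of log2 changes -1.01, adjusted p = 0.491), with a change of 0.22 in females and -0.79 in males. Both genes were named after their values were seen.

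**Figure D5:**
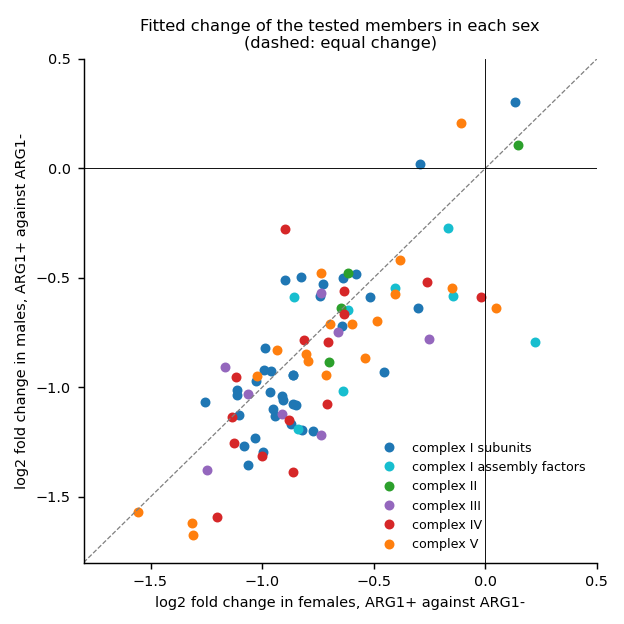
Fitted log2 fold change (ARG1+ against ARG1-) of the 89 tested members in females (horizontal) and in males (vertical), coloured by set, with a line where both are equal. Most points lie in the lower left field, 83 of 89 below 0 on both axes, scattered around the line.

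The labels give the libraries numbers from 1 to 16, and those numbered 13 to 16 supply 1 library to each of the 4 groups. Within the 8 libraries numbered 1 to 12, 30 members were lower, beside 1.93% of all genes in that fit, with a median of -0.91. In the 4 libraries numbered 13 to 16, which allow no test in each sex, the median was -0.68. With a term for this split in the model of all 12 libraries, 69 members were lower. What the numbers stand for is not given in the labels.

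Other genes of the pathway were read from lists fixed with earlier results of these data known, and the background for each is the median of all genes tested, 0.057, with 9.42% lower and 6.44% higher. Of the 4 tested subunits and partners whose names fall outside the rule, 2 were lower, Atpif1 (-0.82, adjusted p = 0.0038), the inhibitor of ATP hydrolysis by the synthase, and Usmg5 (-1.26, adjusted p = 0.00441), a small synthase subunit. Of 33 assembly factors of complexes II to V, 11 were lower and 0 higher, with a median of -0.35. The smallest p-values were those of Uqcc2 (-1.59, adjusted p = 0.000913), needed for the translation of cytochrome b, and Coa4 (-1.08, adjusted p = 0.00306), a complex IV assembly factor. Of 9 complex I assembly factors with other names, 2 were lower, Tmem126a (-0.64, adjusted p = 0.0341) and Dmac1 (-0.93, adjusted p = 0.0351), with a median of -0.10.

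The partner genes of the mitochondrial genome were lower where they passed. Of 13 subunit genes, 8 were tested, 4 were lower and 0 higher, with a median of -0.89. They were mt-Nd1 and mt-Nd3 of complex I, mt-Cytb of complex III (-0.99, adjusted p = 0.0108) and mt-Co1, the catalytic subunit of complex IV (-0.96, adjusted p = 0.00692). By sex, the median was -0.31 in females, with 0 called, and -1.48 in males, with 6 lower. Of all genes 4.16% were lower in females and 3.10% in males. The ARG1- females were not alike. These genes summed to 2144 CPM in ARG1- female 1, against 4300 to 5088 CPM in the other ARG1- libraries and 1318 to 3044 CPM in ARG1+ libraries. The part of this library in the female value was not tested. The difference between the sexes passed the test for 0 of the 8, with 6 at an unadjusted p under 0.05 and a smallest adjusted p of 0.433, that of mt-Nd6 (0.28 in females and -1.54 in males), named after its values were seen. The genes mt-Co2, mt-Atp6 and mt-Atp8 had 0 counts in all libraries and mt-Co3 and mt-Nd4l at most 2, although mt-Co1 stood at 489 to 1159 CPM (median 946) in the ARG1- libraries and 364 to 562 CPM (median 527) in the ARG1+ libraries. Values of the mitochondrial genome therefore cover only some of its genes. All genes of that genome together took 0.247% to 0.636% of the counts in ARG1- and 0.147% to 0.396% in ARG1+ libraries.

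Of 11 tested regulators of mitochondrial biogenesis, 2 were lower and 0 higher, with a median of -0.0071, beside 9.42% and 6.44% of all genes. The lower genes were Tfam (-0.89, adjusted p = 0.0154), which packages and transcribes the mitochondrial genome, and Tfb1m (-1.05, adjusted p = 0.0359), which methylates mitochondrial ribosomal RNA. The genes of the factors whose motifs were searched, named after their values were seen, had log2 values of 0.32 for Nrf1, 0.32 for Yy1, -0.18 for Gabpa and -0.16 for Esrra, with none past the threshold. Of 17 enzymes of the tricarboxylic acid cycle, which feeds the chain, 5 were lower and 0 higher (median -0.16), led by Suclg1 (-0.62, adjusted p = 0.00443) and Mdh2 (-0.53, adjusted p = 0.00618). Of 6 genes for ADP and ATP exchange, phosphate import and outer membrane channels, 4 were lower and 0 higher (median -0.67), led by Slc25a5 (-0.77, adjusted p = 0.000935), an ADP and ATP carrier, and Vdac3 (-0.80, adjusted p = 0.00221), an outer membrane channel.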

How the data were processed

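The authors deposited a table of raw counts per gene for 12 libraries of sorted microglia. Per the labels and the submitters' processing notes, SMART-Seq v4 libraries were sequenced in single-end reads of 75 bases, and bcl2fastq 2.20.0, STAR 2.6.1d, GRCm38, featureCounts 1.5.1 and DESeq2 1.28.1 were named. Strand and multi-mapped read handling are not given in the sources used here. The deposited counts were analysed in R 4.3.3 with edgeR 4.0.16 (filterByExpr over the 4 groups, TMM factors, and the quasi-likelihood test of ARG1 status with sex as a term), adjusted by Benjamini-Hochberg over 16908 genes at 0.05. Contrasts of 4 group means gave the comparisons by sex. DESeq2 1.42.0 and a length and GC trend (mgcv 1.9.3) were alternatives. The code was tested on simulated data.

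Gene types, lengths and coordinates came from GENCODE M21 (260 of 55487 identifiers had no entry), promoter sequences from RefSeq. Totals were 28356659 to 60625170 counts. Libraries are pools of animals, ARG1+ and ARG1- libraries may share them, and p-values measure the spread between these libraries. In 12 pairs of replicates, counts differed by more than sampling noise (chi-square per degree of freedom 42.9 to 134). The members and lists were chosen with earlier results of these data known. Members named are, in each set, the 3 with the smallest p and the 1 with the highest RPKM, all at least 2-fold changed with an adjusted p under 0.05, and the tissue isoforms of complex IV. From most other lists they are the 2 genes with the smallest p, and from the microglia markers also the gene with the highest CPM. From the markers of other cell types only genes that passed the threshold or stood at 0 throughout are named. From the nuclear transcripts and the mitochondrial genome further genes that passed are named. Most others are said to be named after their values were seen.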

Additional observations from a re-analysis of the deposited data

Results flagged for a closer look

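Among 94 groups of 6 libraries tested with Dixon's criterion at the 95% level, 5 held a library far from the others. Chance alone gives about 1 in 20 groups, or 4.7 here, if values are spread normally. This does not hold for groups at or near 0 counts, so the 2 numbers cannot be compared. One concerned a member with high counts. Cox7a2l, which joins complexes III and IV, stood at 75.97 CPM in ARG1- female 2 against 55.9 to 63.3 CPM in the other ARG1- libraries. The rest concerned tissue-specific isoforms close to 0 counts. Cox7a1 stood at 0.381 CPM in ARG1+ female 7 against 0 to 0.136 CPM in the other ARG1+ libraries. Cox4i2 was at 0.132 CPM in ARG1- male 5, Cox7b2 at 0.0889 CPM in ARG1+ male 16 and Ndufa4l2 at 0.0227 CPM in ARG1+ male 11, with 0 in the other libraries of the same population. Where all others are at 0 the criterion flags any value above 0.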

How the results depend on the processing

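Under other settings, the count of lower members (72) was 67 with DESeq2 size factors in place of TMM, 68 with upper-quartile factors, 62 with library totals, 72 with TMM factors that left out the mitochondrial genome, 61 of 92 without a filter, 71 of 87 with at least 10 counts in every library, 74 with DESeq2, 72 without the sex term, 69 with a term for libraries 13 to 16, 66 with the trend in length and GC content removed and 56 when tested against a 1.2-fold change. The count of higher members was 0 in each of these. Leaving out 1 library gave 56 to 72 lower and 0 higher members, with medians of -0.96 to -0.73. With only the libraries numbered 1 to 12, a setting chosen after seeing the data, 30 were lower. Over all genes, higher calls made up 40.6% of calls, 55.2% with library totals and 52.2% with DESeq2, and totals moved the median of all genes from 0.057 to 0.15. The female count (36) was 22 with DESeq2 size factors, 16 without a filter and 0 to 39 when 1 library was left out. The male count (34) was 19 without a filter, 59 with DESeq2, 0 on the 6 male libraries alone and 0 to 56 when 1 library was left out. Between sexes, and for the difference of changes, 0 members were called under each alternative run. Of 878 values of the 40 tested members named by the rule, 849 kept direction and side of the threshold, 27 lost the call and 2 gained it (Cox6a2), and none reversed. Lost calls were those of Ndufaf1, Ndufaf3, Ndufaf7, Ndufs5 and Sdhc. The cause was not tested. No paired analysis was possible because the groups share no replicate numbers in the labels, which do not say which libraries came from the same litters. Depth limits the isoforms of complex IV near 0 counts, where 3 counts are worth up to 0.102 CPM.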

Other observations

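Another group of short, abundant genes was lower in ARG1+ microglia, the proteins of the cytosolic ribosome, which translates nuclear messages. Of 85 tested, 80 were lower in edgeR's quasi-likelihood test and 0 higher, beside 9.42% and 6.44% of all genes, and the median log2 fold change was -1.19. All 85 had a fitted value below 0, and for 78 every ARG1+ library lay below every ARG1- library, beside 6.56% of all genes. Together they took 0.475% to 0.642% of the counts in ARG1- and 0.206% to 0.372% in ARG1+ libraries. Their median exonic length was 1734 bases, and like the oxidative phosphorylation genes many have pseudogenes with near-identical sequence.

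The proteins of the mitochondrial ribosome, which translates the messages of the mitochondrial genome, were lower for 44 of 78 and higher for 0, with a median of -0.59. Of all genes 9.42% were lower and 6.44% higher. Their median exonic length was 2394 bases, against 1675 bases for the oxidative phosphorylation genes. Whether these lists differ in the size of the change was not tested.

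Of the 6 microglia markers, 4 were lower in ARG1+ and 0 higher, beside 9.42% and 6.44% of all genes. Among the lower markers were Siglech (-0.73, adjusted p = 0.000426) and Tmem119 (-0.77, adjusted p = 0.00109). Csf1r, the marker with the highest CPM, stood at 11353 to 23532 CPM (median 15373) in the ARG1- libraries and 13374 to 20314 CPM (median 16785) in the ARG1+ libraries (log2 fold change 0.055 ± 0.16 (SE), adjusted p = 0.861).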
